A study of Mus musculus with 2 samples.

Results

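Cycling natural killer (NK) cells of MC38 tumors numbered 235 of the 11481 cells analysed, 99 of 5608 in the normal diet library and 136 of 5873 in the ketogenic diet library. They were chosen by measured values. A cell needed at least 500 unique molecular identifiers (UMIs, 1 per captured RNA molecule), 300 genes and at most 10% mitochondrial UMIs. It needed at least 2 UMIs of the NK receptor genes Ncr1, Klrb1c and Klre1, at most 1 of the T cell genes Cd3d, Cd3e and Cd3g, and fewer than 5 of the myeloid genes Lyz2, C1qa, C1qb and C1qc. These limits alone were met by 2405 NK-gated cells. Members also had at least 5 UMIs, from at least 2 genes, of Mki67, Top2a, Birc5 and Pclaf. The remaining 2170 NK-gated cells, 781 and 1389, are called the other NK cells. The genes of the rule are no finding, and every gene that differs between cycling and other NK cells is given as a description.

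MC38, a mouse colon adenocarcinoma line, was implanted subcutaneously in C57BL/6J females at 6 to 8 weeks of age, at 500000 cells per mouse. Of the groups, one stayed on a normal diet and one was fed a ketogenic diet from day 4, and tumors were taken at day 14. CD45-positive cells of 5 mice were pooled into 1 library per diet, so neither the spread between mice nor that between libraries can be measured and no test was made. Intervals are 95% intervals for counting error only, exact binomial (Clopper-Pearson) for shares and exact Poisson or conditional for counts.

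NK cells are innate lymphocytes that kill stressed or transformed cells by releasing perforin and granzymes, and they divide when cytokines such as interleukin 15 and interleukin 2 drive them through the cell cycle. Before division a cell licenses replication origins, copies its DNA in S phase while it makes histones, and then builds a spindle and separates its chromosomes in mitosis. Many genes of S phase are switched on by E2F factors, and many genes of G2 and mitosis are controlled by the DREAM and MMB-FOXM1 complexes at promoter elements called CHR, often beside CCAAT boxes bound by NF-Y.

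The member cells carried NK genes, and several markers of other lineages were low or absent in them. Klrd1, which encodes the NK receptor chain CD94, stood at 1076 CPM (UMIs of the gene per 1000000 UMIs summed over the members) in the normal and 1163 CPM in the ketogenic diet members. Klrd1 was at 29.0 and 26.9 CPM in myeloid-gated cells, but at 711 and 641 in T-gated cells. Eomes, a transcription factor of conventional NK cells, stood at 128 and 102 CPM, beside 25.6 and 27.4 in T-gated cells. Cd4, Cd5 and Tcrg-C1 were at 0 in both libraries, and Cd8a was at 0.899 and 0.654 CPM against 554 and 414 in T-gated cells. Trbc2, a T cell receptor constant region gene, was at 194 and 260 CPM against 1365 and 1381. Of genes used for type 1 innate lymphoid cells, Cxcr6 was at 4.50 and 5.88 CPM and Il7r at 9.89 and 9.15, while Itga1 was at 141 and 105, beside 140 and 86.4 in the other NK cells. Not every marker looked at was low. Itga1 was above its T-gated levels of 70.1 and 44.5 CPM. Trdc, a T cell receptor delta constant gene, was at 46.8 and 36.0 CPM, beside 64.7 and 227 in T-gated cells. Tnfsf10, of the innate lymphoid genes, was at 44.1 and 40.5 beside 58.7 and 45.0. Tmem176b, of the same genes, was at 20.7 and 19.6 beside 62.0 and 144. The 7 B cell markers summed to 233 and 170 CPM in members. They summed to 191 and 165 in the other NK cells and 129 and 118 in T-gated cells. The 9 dendritic cell markers summed to 408 and 439 CPM in members, beside 481 and 608 in the other NK cells. At least 3 of their UMIs were held by 58.6% and 59.6% of members and 36.4% and 35.6% of the other NK cells. The 14 T cell markers summed to 704 and 752 CPM in members, 910 and 854 in the other NK cells and 6973 and 6840 in T-gated cells.

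Some members stood apart. The deepest member of each library, with 50782 UMIs (normal) and 36589 UMIs (ketogenic), held 123 and 103 UMIs of tumor and stromal markers, such as Rhox5 (81 and 32) and Cald1 (35 and 18). In each library 3 further members held at least 50 UMIs of MHC class II genes, the antigen-presenting genes of dendritic cells and macrophages, up to 493 and 243 in one cell. The 17 macrophage and monocyte markers summed to 1612 and 1625 CPM in the members, 2471 and 1976 in the other NK cells and 16465 and 12240 in the free RNA of barcodes with at most 100 UMIs. Vcan in the normal and Adgre1 in the ketogenic library were at 0. The 8 neutrophil markers summed to 8.99 and 9.15 CPM. Of the barcodes of candidate cells, 7 occurred in both libraries, and 1 of them was a member in the normal library. Doublets were not called with a program. Some results that rest on these cells are given without them too, but not all. H2-Aa and H2-Ab1, for example, are not given without the members rich in MHC class II.

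Members were deep cells. Their median was 10489 UMIs and 2850 genes (normal) and 10242 UMIs and 2736 genes (ketogenic), against 4310 and 3614 UMIs in the other NK cells. The 4 genes of the rule gave a median of 15 UMIs per normal diet member (5 to 75) and 23 per ketogenic diet member (5 to 78). Just outside the threshold, 9 and 13 NK-gated cells had 4 such UMIs. Just inside it, 11 and 9 cells had 5, of which 10 and 8 were members, since 1 in each library had all 5 from 1 gene. Stmn1, a regulator of microtubules that the rule did not use, had a UMI in 98 of 99 and 135 of 136 members, with a median of 14 and 17 UMIs. It had a UMI in 18.8% and 19.2% of the other NK cells and in 7.83% and 7.41% of myeloid-gated cells, whose medians were 3833 and 3523 UMIs.

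**Figure D1:**
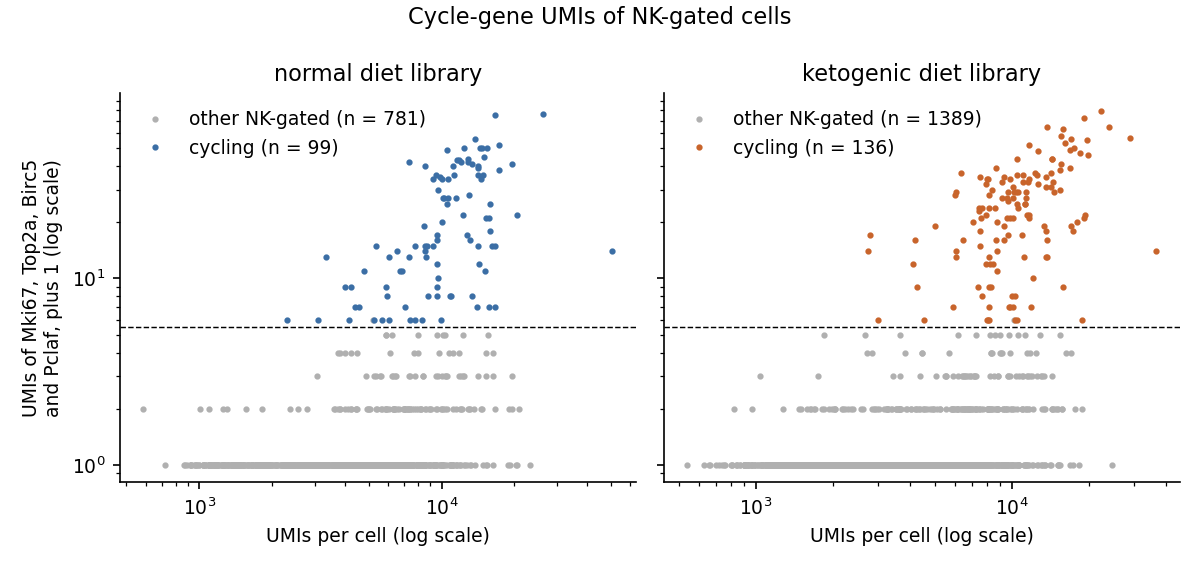
Total UMIs per cell (x axis, log scale) against UMIs of Mki67, Top2a, Birc5 and Pclaf plus 1 (y axis, log scale) for every NK-gated cell, in the normal (left) and ketogenic library (right); grey points are other NK cells, colored points members, and the dashed line marks the threshold of 5 UMIs. Members lie at depths of 2292 to 50782 and 2740 to 36589 UMIs, and their cycle-gene UMIs run on from those of the other cells without a gap at the threshold.

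Most of the measured mitotic genes and fewer of the measured S phase genes were at least 2-fold higher in cycling than in the other NK cells. Of 5230 genes outside the rule with at least 50 UMIs in the members, 170 were at least 2-fold higher in cycling cells in both libraries (3.25%) and 7 at least 2-fold lower in both (0.134%), on the scale of log2(CPM + 20), which is used for every log2 value below. The 7 were Ccl5, Ccl4, Mxd1, Ccnd2, Btg1, Gzmg and Ifit3, an interferon-induced gene. Gzmg had 0.09 in the normal library when no Cd3 UMI and at most 1 Lyz2 or C1q UMI were allowed. Gzmg was lower in summed level only. It had a UMI in 16.2% and 15.4% of members against 8.45% and 7.49% of the shallower other NK cells. Single other NK cells held up to 607 and 808 of its UMIs. Among genes of the kinetochore, spindle and cytokinesis 25 of 26 measured were higher and none was lower, with medians of 2.12 and 2.28. Among G2 and M phase genes 40 of 46 were higher, with medians of 1.79 and 1.91. S phase genes came to 17 of 41, with medians of 1.07 and 1.02, and the MCM helicase and origin licensing genes to 3 of 13, with 0.93 and 0.82. The median over all measured genes was 0.029 (normal) and 0.047 (ketogenic). These contrasts share the split that chose the cells and are read as a description.

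Single mitotic genes stood far above the other NK cells. Ube2c, the ubiquitin-conjugating enzyme of the anaphase-promoting complex, was at 372 CPM in the normal and 506 in the ketogenic members, beside 15.7 and 14.2 in the other NK cells. Cdk1, the kinase that starts mitosis, was at 229 and 236 CPM beside 9.73 and 8.57. Nusap1, which bundles spindle microtubules, was at 154 and 253 beside 0.998 and 2.26. Cenpf, a kinetochore protein, was at 204 and 319 beside 7.24 and 5.50, and Cdca8, a subunit of the chromosomal passenger complex with Aurkb and Incenp, was at 196 and 213 beside 7.24 and 5.66. All of these had log2 differences of 2.99 to 3.94 in both libraries. Ect2, a cytokinesis factor, was the one measured gene of its list short of 2-fold, at 0.97 and 0.94.

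S phase enzymes differed in size. Rrm2, the regulated subunit of ribonucleotide reductase, was at 218 and 273 CPM in members and 5.49 and 5.82 in the other NK cells (log2 differences 3.22 and 3.50). Tyms, which makes thymidylate, had differences of 2.27 and 2.43, and Clspn, a checkpoint adaptor of the replication fork, 2.11 and 2.34. The helicase genes stood lower in the order: Mcm7 had 1.45 and 1.15, Mcm5 0.96 and 1.02, and Mcm2 0.47 and 0.58. Mcm6 was already at 104 and 85.7 CPM in the other NK cells, beside 168 and 139 in members. Among 28 genes of nucleotide and one-carbon synthesis 8 were higher, including Tk1 (2.27 and 2.51) and Dut (1.68 and 1.74), while purine genes such as Paics (0.36 and 0.44) and Gart (0.30 and 0.23) were not past 2-fold.

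Cyclins split by phase. Ccna2, the cyclin of S phase and G2, was at 127 and 155 CPM in members and 1.25 and 0.970 in the other NK cells, and Ccnb1 and Ccnb2, the mitotic cyclins, had log2 differences of 2.21 and 2.36 and of 2.33 and 2.71. Ccne1, the cyclin of the entry into S phase, had 1.37 and 1.21. Ccnd2, a cyclin of G1, went the other way: it was at 162 and 111 CPM in members and 373 and 280 in the other NK cells (-1.11 and -1.19). Ccnd3, another D cyclin, had -0.09 and -0.19. Mxd1, which encodes an antagonist of MYC, was at 17.1 and 28.1 CPM against 94.1 and 114 (-1.62 and -1.48), and Btg1, an antiproliferative gene, followed at 317 and 403 against 720 and 868 (-1.13 and -1.07). Myc itself differed by -0.33 and -0.59.

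Because the genes above moved together, promoter sequences were read from RefSeq (build GRCm38.p6) in a window of 150 bases, from 120 before to 30 after the start. The motifs searched, on both strands, were the CHR element TTTGAA, the CCAAT box CCAAT and the E2F motif spelled TTTGGCGC, TTTCCCGC or TTTCGCGC. Of 51 G2 and M phase genes 44 had an entry and 52.3% of these held a CHR match, against 8.54% of the promoters of all 27025 genes in the table (first entry per gene). A CCAAT match was found in 75% of them against 24.7% of all, and an E2F match in 2.27% against 1.01%. Of 43 S phase genes 31 had an entry, and 9.68% of these held a CHR match, 64.5% a CCAAT match and 22.6% an E2F match. Among 27 kinetochore, spindle and cytokinesis genes, of which several are also in the G2 and M list, 22 had an entry and 63.6% held a CHR match. A match is a description of letters, not of binding. The windows below are shown because Cdk1, Cdca8 and Ube2c hold CHR and CCAAT matches (in capitals), Rrm2, an S phase gene, a CCAAT match only, and Nusap1 none, although all 5 were among the genes highest in cycling cells. In Cdca8 the CHR match and a CCAAT match on the opposite strand overlap.
Cdk1, chr10:69352883-69353032, minus strand: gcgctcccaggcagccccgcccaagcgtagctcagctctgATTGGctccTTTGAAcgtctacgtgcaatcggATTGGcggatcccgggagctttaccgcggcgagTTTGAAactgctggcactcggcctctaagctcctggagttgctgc
Cdca8, chr4:124936888-124937037, minus strand: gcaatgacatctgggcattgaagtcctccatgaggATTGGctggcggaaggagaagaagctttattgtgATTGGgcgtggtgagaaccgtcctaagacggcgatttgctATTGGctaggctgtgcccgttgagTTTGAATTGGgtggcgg
Ube2c, chr2:164769809-164769958, plus strand: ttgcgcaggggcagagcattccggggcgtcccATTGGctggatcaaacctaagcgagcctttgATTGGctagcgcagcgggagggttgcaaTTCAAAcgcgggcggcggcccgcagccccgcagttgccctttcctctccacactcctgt
Rrm2, chr12:24708134-24708283, plus strand: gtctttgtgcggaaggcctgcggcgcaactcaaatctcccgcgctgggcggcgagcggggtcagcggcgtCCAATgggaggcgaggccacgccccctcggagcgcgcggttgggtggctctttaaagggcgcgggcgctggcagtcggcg
Nusap1, chr2:119618178-119618327, plus strand: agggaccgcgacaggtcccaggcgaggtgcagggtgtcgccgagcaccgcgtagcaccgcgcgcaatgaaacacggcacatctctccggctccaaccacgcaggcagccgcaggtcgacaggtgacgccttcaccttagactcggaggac

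Phase within the members was read from UMIs of the S phase list and of the G2 and M phase list, neither of which holds a gene of the rule. S-led cells, with more S phase than G2 and M UMIs, made up 29.3% of members in the normal (29 of 99, interval 20.6 to 39.3) and 19.9% in the ketogenic library (27 of 136, 13.5 to 27.6). The ratio of shares was 0.678, with an interval of 0.430 to 1.07 that includes equal shares. With every cell thinned to 2000 UMIs the shares were 25.3% and 21.3%. S-led is a range and not a type: 24 and 42 members lay within 20% of an even split. Median depth was alike in S-led cells (10879 and 10460 UMIs) and the rest (10374 and 10117).

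Mitotic transcripts were also looked at as a pair. Ccnb1 and Cdc20, the activator of the anaphase-promoting complex, were both detected in 29 of 99 members (29.3%, 20.6 to 39.3) and 37 of 136 (27.2%, 19.9 to 35.5). All of these cells were on the G2 and M side, and none was S-led. Both genes were detected in 0 of 781 and 2 of 1389 other NK cells, which are shallower (medians of 4310 and 3614 UMIs). Counting 3 cells as the limit, 0 of 781 allows up to 0.384% of cells with UMIs of both genes, which says nothing of cells that express them below detection. Thinned to 2000 UMIs, the pair was detected in 4 of 99 (4.04%) and 8 of 136 members (5.88%), and in 0 of 618 and 1 of 1045 other NK cells. Ccnb2 was higher in G2 and M-led than in S-led members by 3.15 and 3.01 on the log2 scale, and Ube2c by 3.82 and 3.75. Mcm6 was lower by -1.21 and -0.84, and Ung, a repair glycosylase that acts at replication forks, by -2.08 and -1.94. The phase lists include these genes except Ccnb1, so these differences describe the split.

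**Figure D2:**
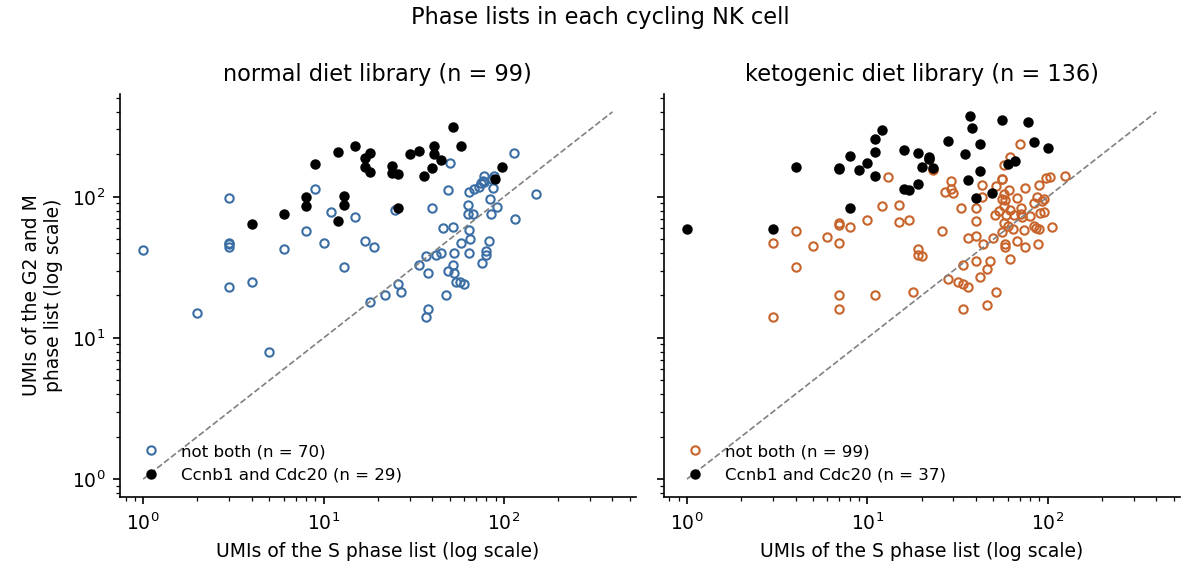
UMIs of the S phase list (x axis, log scale) against UMIs of the G2 and M phase list (y axis, log scale) in each member of the normal (left, 99 cells) and ketogenic library (right, 136 cells); filled black points have UMIs of both Ccnb1 and Cdc20, open points do not, and the dashed line marks equal UMIs. The 29 and 37 filled points all lie above the line.

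The share of NK cells that passed the cycling rule was 11.25% in the normal (99 of 880, 9.24 to 13.5) and 8.92% in the ketogenic library (136 of 1525, 7.54 to 10.5), a ratio of 0.793 (0.620 to 1.01). The rule counts UMIs and the other NK cells of the ketogenic library were shallower. With every NK-gated cell thinned to 2000 UMIs, leaving out 163 and 344 shallower cells, the shares were 5.02% and 5.42% and the ratio 1.08 (0.725 to 1.61), in the other direction. A difference in the share of cycling NK cells was thus not detectable at this depth. By the same 4 genes, 10.1% and 7.17% of T-gated cells and 1.76% and 1.91% of myeloid-gated cells passed, and after thinning 7.94% and 3.60% and 0.342% and 0.549%.

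Cycling cells differed from the other NK cells in the granzyme that led them. Gzma encodes granzyme A, a tryptase-like protease of resting NK cells, and Gzmc encodes granzyme C, one of the granzymes made by activated lymphocytes; neither is in the rule. Cells with more Gzma than Gzmc UMIs made up 11.1% of normal diet members (11 of 99, 5.68 to 19.01) and 11.03% of ketogenic diet members (15 of 136, 6.31 to 17.5). Among the other NK cells they made up 40.8% (37.4 to 44.4) and 47.7% (45.0 to 50.3). After thinning to 2000 UMIs the shares were 10.1% and 11.03% of members and 27.8% and 33.5% of the other NK cells, so the intervals stayed apart in both libraries. Gzmc-led cells were 87.9% and 87.5% of members and 56.3% and 50.3% of the other NK cells. Within Gzma-led NK cells 3.33% and 2.22% were cycling, and within Gzmc-led NK cells 16.5% and 14.5%. After thinning these were 2.12% and 2.45% and 6.26% and 6.69%. For this contrast the thinned intervals overlapped in the normal library (0.580 to 5.33 for Gzma-led and 4.32 to 8.73 for Gzmc-led cells). In the ketogenic library they did not (1.12 to 4.59 and 5.05 to 8.66). Gzma-led other NK cells were shallow, with medians of 2257 and 2086 UMIs against 6301 and 5646 in Gzmc-led ones, and the part of depth in the split beyond thinning was not tested.

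Summed levels told the same order. Gzma was at 2719 CPM in normal and 3006 in ketogenic members, against 4251 and 4838 in the other NK cells (log2 differences -0.64 and -0.68). Gzmc was the most abundant granzyme, at 22709 and 23643 CPM in members and 19313 and 21505 in the other NK cells (0.23 and 0.14). Gzmc UMIs were also found in 26.0% and 30.8% of myeloid-gated cells, where the median was 0 UMIs, against a median of 203 and 188.5 UMIs per member. Members with at least 5 UMIs of Gzmd to Gzmg made up 37.4% and 49.3%, against 23.3% and 18.7% of the other NK cells, but after thinning 24.2% and 27.9% against 21.8% and 19.2%. Gzmd, Gzme, Gzmf and Gzmg are close copies, and how the counting split reads between them is not given in the sources used here.

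**Figure D3:**
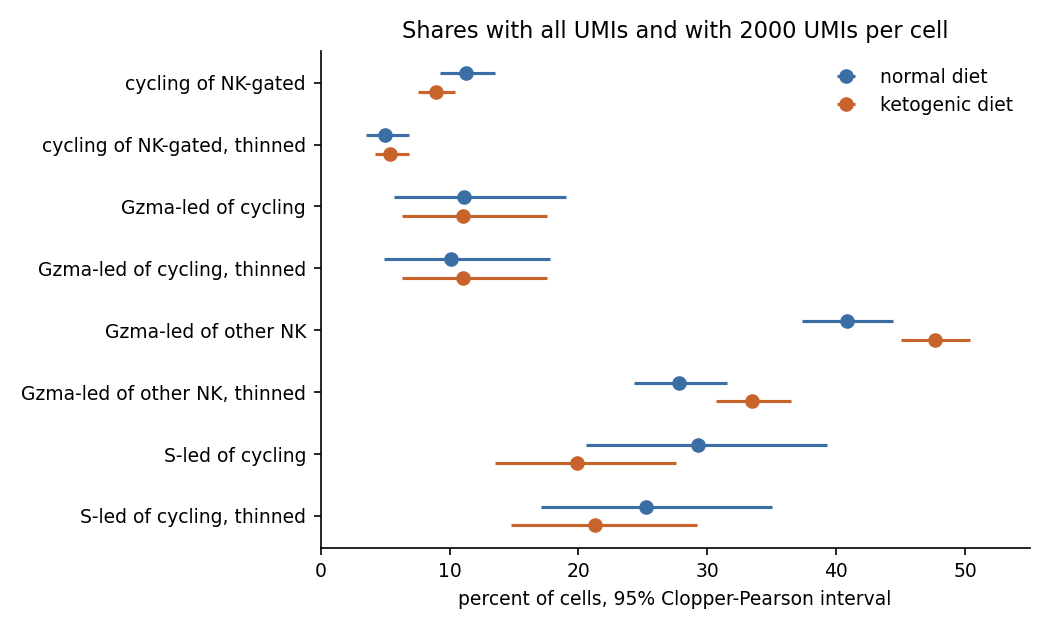
Percent of cells (x axis) in each class named at the left, in the normal (blue) and ketogenic library (orange), with 95% Clopper-Pearson intervals; thinned means 2000 UMIs per cell. Gzma-led cells are 10.1% to 11.1% of cycling cells and 27.8% to 47.7% of the other NK cells, while the diets overlap for the cycling and S-led shares.

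Receptors and effector genes were mostly somewhat lower in cycling than in the other NK cells, but few were past 2-fold. Of 25 measured NK receptor genes outside the rule none was past 2-fold in both libraries, with medians of -0.41 and -0.33. Tyrobp, the signaling adaptor DAP12, was at 1462 and 1686 CPM against 2574 and 2876, and Klra8, the receptor Ly49H, at 139 and 195 against 255 and 274. Klrc2, an activating partner of Klrd1, was at 94.4 and 92.8 against 77.9 and 75.7. Ifngr1, a chain of the interferon-gamma receptor, was at 151 and 259 CPM against 391 and 472 (-1.26 and -0.82), and Fasl, the death ligand, at 46.8 and 64.1 against 111 and 125 (-0.97 and -0.78). Prf1, perforin, was at 989 and 871 against 1153 and 1005 (-0.22 and -0.20).

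The chemokine Ccl5, which draws T cells and myeloid cells, was far lower in cycling cells. It stood at 166 CPM in normal and 94.1 in ketogenic members, against 1134 and 1727 in the other NK cells (log2 differences -2.63 and -3.94). One normal cell held 38.4% and one ketogenic cell 22.2% of the members' Ccl5 UMIs, and without that cell the levels were 102.5 and 73.2 CPM. Ccl4, a related chemokine, was at 271 and 94.1 CPM against 611 and 841 (-1.12 and -2.92), with 75.4% of the normal UMIs in one cell. These were the 2 of 10 measured cytokine genes that were lower in both libraries. Ccl5 was at 1200 CPM in the free RNA of the normal library, so the member level was below that of free RNA. Xcl1, which attracts type 1 dendritic cells, was at 2185 and 2188 CPM against 1571 and 2392, and did not keep a direction (0.47 and -0.13). Tfrc, the transferrin receptor that brings in iron, had 1.01 and 0.90, and none of 18 growth and uptake genes was past 2-fold in both libraries.

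Between the diets, members differed in few genes. Of 5238 genes with at least 50 UMIs in the members, 30 were at least 1.5-fold higher in the ketogenic library (0.573%) and 66 at least 1.5-fold lower (1.26%), and the median over all was -0.013. At 2-fold 2 were higher and 11 lower. Of these 96 genes, 26 had over 20% of their UMIs in a single cell of a library, 4 higher and 22 lower. Leaving such genes out gave 26 higher and 44 lower of 5079, and leaving out the tumor-marker cells gave 32 and 62 of 5111. In the other NK cells 1 of the 30 was also higher and 11 of the 66 also lower at this fold. The share of all 5238 genes past this fold in the other NK cells is not given. These overlaps therefore cannot be called few or many. Higher and lower in what follows mean past 1.5-fold between these libraries, and each diet is 1 library.

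Among genes with no cell holding over 20% of a library's UMIs, histone genes led the higher side. With such genes counted, Cxcl2 (1.31, with 88.4% of its ketogenic UMIs in one cell), Ccl2 (0.93) and Il1b (0.80), genes of inflammatory myeloid cells, stood among them. Hist1h2ae, a histone H2A gene, was at 113 CPM in normal and 251 in ketogenic members (log2 1.02, ratio 2.22, 1.81 to 2.73), with 49 of 99 and 78 of 136 cells holding a UMI. Hist1h1b, a linker histone gene, was at 425 and 716 CPM (0.72), and its median per cell was 1 UMI (normal) and 4 UMIs (ketogenic). Hist2h2ac had 0.85 and Hist1h3e 0.71. Of all 16 measured genes of this family, looked up after these values had been seen, 4 were higher, 14 were above 0 and the median was 0.40. Hist1h2ap went the other way at 231 and 163 CPM (-0.46), and Hist1h1c was at 71.9 and 60.1 (-0.20). Within S-led members the family's median was 0.53 (7 of 16 higher), and within G2 and M-led members 0.25 (2 higher, 1 lower). Over all genes the medians were -0.014 and -0.008. The share of all genes past the fold within these smaller groups is not given, so the counts have no base to be set against. The family was itself higher in G2 and M-led than in S-led members, with median log2 differences of 1.26 (normal) and 0.95 (ketogenic). The part of phase make-up in the diet difference was not tested beyond this split. Replication histone mRNAs mostly lack a poly(A) tail and several are near copies of each other, so a poly(A)-based 3-prime assay sees them in part and their split between genes is uncertain.

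Other cell cycle genes differed less. None of 41 S phase genes was past the fold in either direction and their median was -0.012, with Tyms at 0.30 and Mcm2 at -0.48. Of 46 G2 and M phase genes 3 were higher, Nusap1 (0.65), Nuf2 (0.62), a kinetochore subunit, and Cenpf (0.60), none was lower, and the median was 0.11. Nuf2 was detected at 27.9 and 53.6 CPM, in 24 and 59 cells. Kif18a, a motor that aligns chromosomes, was at 9.89 and 31.4 CPM (0.78). Cdk1 (0.04), Cdca8 (0.11) and Plk1 (-0.03) hardly differed. Among the 13 helicase and licensing genes none was past the fold and the median was -0.17, which was also the median in the other NK cells. The median of G2 and M genes was 0.010 within G2 and M-led members (1 of 46 higher, none lower) and 0.11 within S-led members (4 higher, 1 lower). Here too the share of all genes past the fold within each group is not given.

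Granzymes did not move as one. Gzmb, granzyme B, was at 3978 CPM in normal and 2490 in ketogenic members (log2 -0.67, ratio 0.626, 0.599 to 0.654), while the other NK cells had 4073 and 3539 (-0.20). Gzmb UMIs were spread over 96 of 99 and 132 of 136 cells. The log2 value was -0.51, under the fold, with every cell thinned to 2000 UMIs, and -0.70 without the tumor-marker cells. These were the ends of the range over the alternatives run. Gzmf was at 1827 and 745 CPM (-1.27) and Gzmg at 342 and 140 (-1.18), but a single normal cell held 40.6% and 32.9% of their UMIs and only 18 and 16 normal members held any. Without the leading cell of each library Gzmf was at 1085 and 553 CPM and Gzmg at 229 and 104. Gzmc (0.06), Gzma (0.14), Gzme (0.35), Gzmd (0.40) and Prf1 (-0.18) were not past the fold. Serpinb9b, a serpin gene near the granzyme inhibitor Serpinb9, was higher (0.73), with 24.7% of its ketogenic UMIs in one cell, but had 0.58, under the fold, without the leading cells and -0.07 thinned to 2000 UMIs. Serpinb9 had -0.06.

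**Figure D4:**
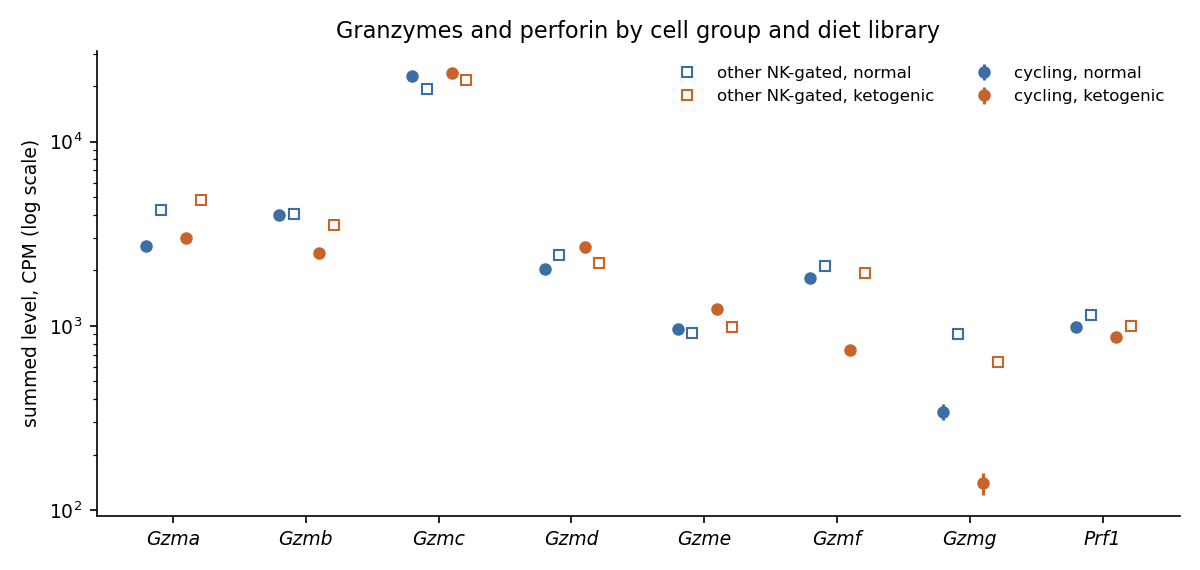
Summed level of 7 granzyme genes and Prf1 in CPM (y axis, log scale) in members (filled circles, with exact Poisson 95% intervals, mostly smaller than the symbol) and other NK cells (open squares) of the normal (blue) and ketogenic library (orange). Gzma lies lower in members than in the other NK cells of both libraries, and Gzmb is lower in ketogenic (2490) than in normal members (3978).

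Of 10 measured cytokine genes 5 were lower in ketogenic members and none higher, and each of the 5 had over 20% of its UMIs of a library in one cell. The median was -0.51, against 0.035 in the other NK cells, where Xcl1 (0.60) and Ccl5 (0.60, 1134 and 1727 CPM) were higher and none was lower. Ccl1, a chemokine of activated lymphocytes, was at 449 CPM in normal and 7.19 in ketogenic members (-4.11), with UMIs in 11 of 99 and 4 of 136 cells and 37.7% of the normal UMIs in one cell. Of the 499 normal UMIs 188 lay in that cell, and 150, 64 and 43 lay in other single members. Without the leading cell of each library Ccl1 was at 280 and 1.96 CPM, and the normal level still rested on few cells. In the other NK cells it was at 38.9 and 54.8, in 2.30% and 2.66% of cells, and in 0.180% and 0.185% of myeloid-gated cells. Ccl3 (-2.52) had 85.3% and Ccl4 (-1.35) 75.4% of its normal UMIs in one cell, and without the leading cells Ccl3 had -0.72 and Ccl4, at 66.6 and 74.5 CPM, had 0.13. Ccl5 was at 166 and 94.1 CPM (-0.71) and had -0.39 without the leading cells, so Ccl4 and Ccl5 were then no longer lower. Ifng, interferon gamma, was at 124 and 59.5 CPM (-0.86), 97.1 and 55.6 without the leading cells, and had UMIs in 39.4% and 39.0% of members. Xcl1 (0.00) and Ltb (0.20) were not lower.

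Mitochondrially encoded RNA was lower in ketogenic members, and its share was also lower in the other NK, T-gated and myeloid-gated cells of that library. Of 12 measured genes 6 were lower, with a median of -0.55 in members and -0.51 in the other NK cells. mt-Atp6, a subunit of ATP synthase, was at 4353 and 2258 CPM (-0.94), mt-Nd3 of complex I at 338 and 177 (-0.87) and mt-Co2 of complex IV at 3761 and 2392 (-0.65). mt-Cytb was at 2192 and 1943 (-0.17). Nuclear-encoded subunits of the respiratory chain had a median of 0.11, with none of 39 past the fold. The median mitochondrial share was 2.31% and 1.46% per member, 2.37% and 1.495% in the other NK cells, 2.10% and 1.48% in T-gated and 1.75% and 1.25% in myeloid-gated cells. The free RNA of the normal library held mt-Atp6 at 9194 CPM, and the part of free RNA in this difference was not tested beyond the 5% subtraction, which gave -0.92 for mt-Atp6.

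Some lipid synthesis genes were lower in ketogenic members, and most of these calls depended on the processing. Of 16 measured genes of cholesterol and fatty acid synthesis 4 were lower, none higher and 1 above 0, with a median of -0.37 (-0.21 in the other NK cells). Fasn, fatty acid synthase, was at 38.7 CPM in 29 normal and 10.5 CPM in 14 ketogenic members (-0.95, ratio 0.270, 0.142 to 0.490). Scd2, a desaturase, was at 58.5 and 28.8 (-0.69), but at -0.42 thinned to 2000 UMIs and -0.53 with the stricter lineage limits given below, under the fold. Fasn had -1.14 and -0.80 under these settings, and -0.55, just under the fold, with 50 CPM added. Fdps, of the mevalonate pathway, was at 166 and 85.0 CPM (-0.83) and -0.60 without the tumor-marker cells, one of which held 25.9% of its normal UMIs, and Msmo1 (-0.71) had -0.33 without them. Thinned to 2000 UMIs, Fdps had -0.19 and Msmo1 0.42. The thinned values of genes come from a single draw that leaves fewer UMIs per gene. Pcyt2, of phosphatidylethanolamine synthesis, was at 39.6 and 13.1 CPM (-0.85), and at -0.39 thinned. With no Cd3 UMI and at most 1 Lyz2 or C1q UMI allowed, the list's median was -0.07 and Fdps had -0.18. The 12 genes of ketone body use and sensing had 3 measured members, none past the fold.

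Among receptors and regulators, Klra3, the inhibitory receptor Ly49C, was at 73.7 CPM in 24 normal and 139 CPM in 49 ketogenic members (0.76, ratio 1.89, 1.46 to 2.47), beside 129 and 174 in the other NK cells (0.39). Klra5 was at 80.9 and 29.4 (-1.03), with 24.4% of its ketogenic UMIs in one cell. Ly49 genes are close copies, so these values are uncertain between them. Ifngr1 was higher at 151 and 259 CPM (0.70), and Pdcd4, a translation inhibitor, at 46.8 and 87.6 (0.69). Zbtb32, a repressor induced in proliferating NK cells, was lower at 71.0 and 30.7 CPM (-0.84), as was Nr4a2, an immediate early nuclear receptor, at 131 and 70.6 (-0.74). Hsp90aa1, an inducible chaperone, was lower at 908 and 531 (-0.75), and Crtam, a receptor of activated lymphocytes, at 40.5 and 15.7 (-0.76). Of 30 type I interferon-stimulated genes and 19 interferon-gamma-induced genes none was past the fold, with medians of -0.062 and 0.036.

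**Figure D5:**
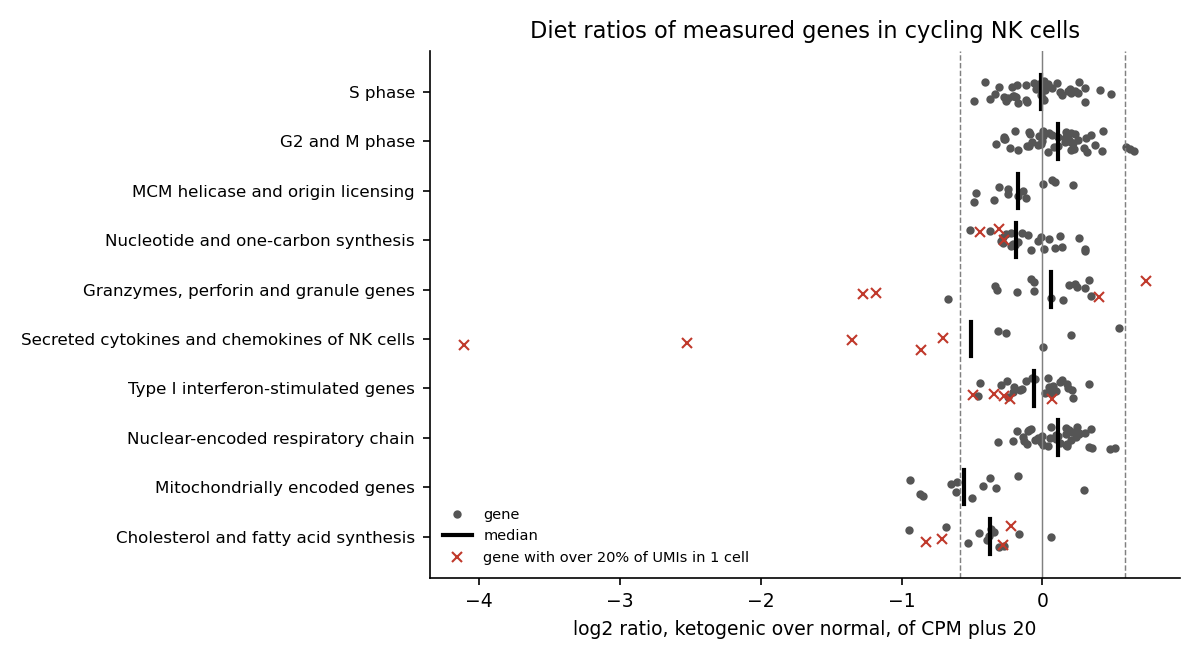
Log2 ratio of CPM plus 20, ketogenic over normal (x axis), of each measured gene in members for 10 gene lists (rows); black bars are medians, dashed lines mark 1.5-fold, and red crosses are genes with over 20% of their UMIs in 1 cell of a library. The 5 lower cytokine genes are all crosses, while 6 mitochondrially encoded genes lie beyond the lower line as dots.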

How the data were processed

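Single-cell 3-prime RNA libraries of CD45-enriched tumor cells were analysed, 1 per diet. For each barcode the authors deposited unnormalized UMI counts of 32285 genes. Cell Ranger made them, version 4 per the file headers. The submitters' processing notes list Cell Ranger 6.0.0, Seurat 3.2.0, GRCm38 and mm10. The matrices are not filtered to cells and sum to 37575996 and 42710007 UMIs. Limits on UMIs, genes and mitochondrial share left 5608 and 5873 cells. The members and all gene lists were chosen with earlier results of these data known.

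Counts of members were summed per library (1111991 and 1529857 UMIs) and scaled to CPM. A gene was measured with at least 50 UMIs over both libraries, and log2 ratios used CPM + 20. Named genes were members of 32 lists (622 symbols, 3 not found) or the 12 highest and 12 lowest of each comparison. Mitochondrial, ribosomal and hemoglobin genes, unnamed gene models and genes with over 20% of UMIs in 1 cell were left out of the latter. Thinning drew 2000 UMIs per cell, and thinned shares are medians of 100 draws. Thinned gene ratios and counts of genes come from a single draw, in which 1294 genes met the limit of 50 UMIs. Ratios of shares have log-normal intervals. UMIs remove PCR copies, and intervals cover counting error only. Software was pandas 2.3.3, scipy 1.17.1, numpy 2.4.6 and matplotlib 3.10.9 under Python 3.11.15, and the calculations were tested on simulated data. Alternatives varied each gate, the depth limits, the fold scale and the treatment of free RNA.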

Additional observations from a re-analysis of the deposited data

How the results depend on the processing

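With 1 library per diet, all limits are those of counting and of the gates. No paired analysis was possible because each diet has 1 library and no test was made. Thinning to 4000 UMIs and leaving out tumor-marker cells, MHC class II-rich cells, single-cell genes or each gene's leading cells, and thinning of the Ccnb1 and Cdc20 pair, were chosen after seeing the data.

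The cycling share moved with depth and gate. For the normal and ketogenic library it was 5.02% and 5.42% when thinned to 2000 UMIs, 13.8% and 11.5% among cells of at least 2000 UMIs, and 13.9% and 11.7% with at least 4 NK UMIs. Thinned to 4000 UMIs the ketogenic share was 13.8%, and the log2 ratio of shares, -0.34 by the rule, was 0.08, against 0.11 at 2000 UMIs. The normal share was 13.8% from 3 cycle-gene UMIs, 8.75% from 8, and 8.89% with no Cd3 UMI and at most 1 Lyz2 or C1q UMI. Gzma-led shares of the other NK cells were 28.8% and 33.8% from 2000 UMIs, 27.8% and 33.5% thinned, 33.9% and 40.8% with at least 4 NK UMIs, and 46.6% and 52.7% among cells with 0 cycle-gene UMIs. The Gzma-led and S-led shares of members moved by less than their intervals in every alternative run.

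Counts of genes depended on the scale. Genes higher and lower in ketogenic members were 170 and 290 with 1 CPM added, 7 and 31 with 50 CPM, and 13 and 27 with at least 200 UMIs. Higher genes alone were 50 from 8 cycle-gene UMIs, 49 with free RNA subtracted, 46 from 20 UMIs per gene, 51 by mean CPM per cell, 64 with the stricter lineage limits and 72 thinned. Genes higher in cycling cells were 330 with 1 CPM, 85 with 50 CPM, 91 from 200 UMIs and 71 thinned. Genes lower in cycling cells were 4 from 2000 UMIs, 4 with at least 4 NK UMIs, 21 by mean CPM per cell and 3 thinned. The number of measured genes, 5238 in the main run, differed too, so these counts are not parts of one total. It was 7763 from 20 UMIs per gene, 1758 from 200 UMIs and 4865 from 8 cycle-gene UMIs. With the stricter lineage limits it was 4076, with at least 4 NK UMIs 5160, and thinned 1294. The causes were not tested.

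Reversed values belong to genes carried by single cells or with few UMIs. Without tumor-marker cells, cycling over other NK cells in the normal library gave -0.18 for Ier3 and -0.19 for Rhox5, and the diet log2 ratio was 0.05 for Ccnd1 and 0.09 for Rhox5. With at most 20000 UMIs the same values were -0.13, -0.25, 0.05 and 0.10. With the stricter lineage limits, cycling over other gave -0.02 for Cald1, 0.09 for Gzmg, -0.28 for Ier3 and -0.28 for Rhox5, and diet gave 0.81 for Cald1, 0.32 for Ccnd1, 0.03 for Ier3 and 1.26 for Rhox5. Thinned in a single draw, Rhox5 gave -0.22 for cycling over other, and diet gave 0.42 for Msmo1 and -0.07 for Serpinb9b. From 8 cycle-gene UMIs, diet gave 1.36 for H2-Aa, 0.45 for H2-Ab1 and 1.32 for H2-Eb1, and 0.12 for H2-Eb1 without MHC class II-rich cells. Over all alternatives, 1071 of 1125 diet ratios of single genes moved by no more than a limit taken from their counting interval. That interval is of the CPM ratio with nothing added, and is wide for genes with few UMIs. The main log2 values have CPM added to both sides, which makes them smaller, so the limit is too loose for them. The 1071 therefore cannot be read as ratios that stayed within counting error. Fasn, from -0.95 to -1.79 with 1 CPM added, and Pcyt2, from -0.85 to -0.39 thinned, are counted among the 1071. Of the cycling ratios, 2232 of 2400 moved by under 0.5 on the log2 scale.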
